A study of Mus musculus with 14 samples.

Results

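Plvap and 9 other genes of brain endothelium, the cells that line blood vessels, were followed across hippocampal RNA of 14 male mice. The 10 genes were picked by name from the 24421 genes of the count table. Plvap was picked for its difference between the genotypes. It lies 1666651 bases from Lpar2 on chromosome 8, and the question was whether barrier genes elsewhere in the genome moved with it. The other 9 were Cldn5, Pecam1, Flt1, Slco1a4, Slc2a1, Mfsd2a, Abcb1a, Tek and Cdh5, and all 10 passed the filter on low counts, under which 14897 genes were tested. The mice were 7 animals labelled LPAR2-/- and 7 wild-type (WT) animals, with 1 library each, all untreated and of the strain label 129.C57Bl6. The LPAR2-/- line lacks the later part of exon 2 of Lpar2, a receptor for lysophosphatidic acids, in every cell. Homozygous knockouts and their controls, which were of mixed C57BL/6 and 129/SvJ descent, were kept as separate colonies. The deletion, the colony and the flanking chromosome of the deleted gene can therefore not be told apart. The labels and the study's methods name the hippocampus as the tissue, and the study's results name the dentate gyrus, which is a part of it. The age of the mice is uncertain, since the labels put it at 10 to 12 weeks and the deposited description at middle age or older.

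Brain endothelium forms the blood-brain barrier. Tight junctions seal the gaps between the cells, vesicle transport across the cells is kept low, and selective transporters and efflux pumps decide what passes. PLVAP, the plasmalemma vesicle-associated protein, builds the diaphragms of caveolae and of the pores of fenestrated vessels. In the mature brain it is a hallmark of vessels without a barrier, such as those of the choroid plexus, whereas vessels with a barrier carry little of it.

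Between 16373410 and 21992980 reads per WT mouse and between 15434620 and 23258949 per mouse labelled LPAR2-/- were counted on genes, and no difference in these totals was detected (p = 0.893 in an exact two-sided permutation test). The targeted gene went against its label. Lpar2 (chr8:69822565-69831102, mm10) had 144 to 234 counts in the mice labelled LPAR2-/- and 27 to 66 counts in WT mice, which is 9.55 ± 1.41 against 2.36 ± 0.676 CPM (SD, n = 7 each), the counts of a gene scaled to a common library size. These counts sum all exons of the gene and do not show whether the deleted part was read, so the genotypes below are those of the labels. Some libraries stood apart in genes of other cells. The mouse labelled LPAR2-/- 2 had 4726 counts of Ttr, the transthyretin of choroid plexus epithelium, against 20 to 427 in the other 13 mice. WT mouse 1 had 111 counts of Selp and 41 of Sele, adhesion molecules of activated endothelium, against 1 to 10 and 0 to 4 elsewhere. Lists that hold these genes, and the 9 endothelial genes, are also given without them.

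Plvap (chr8:71497753-71511769, minus strand, 6 exon blocks with 2016 counted bases) was higher in the mice labelled LPAR2-/-. Their lowest, median and highest levels were 14.7, 16.1 and 19.7 CPM, from 250 to 458 counts. In WT mice the corresponding levels were 5.87, 6.65 and 7.16 CPM, from 103 to 148 counts. Each mouse labelled LPAR2-/- lay above each WT mouse. The means of 16.8 ± 1.68 and 6.57 ± 0.531 CPM (SD, n = 7 each) were 2.56-fold apart, a log2 fold change of 1.36. This difference led to the choice of Plvap and is given as a description, without a test. With any 1 mouse left out the log2 fold change lay between 1.32 and 1.39. RNA of whole tissue does not measure the number of endothelial cells apart from the RNA per cell, and neither was tested. The 9 other endothelial genes had log2 fold changes from −0.24 to 0.29.

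**Figure D1:**
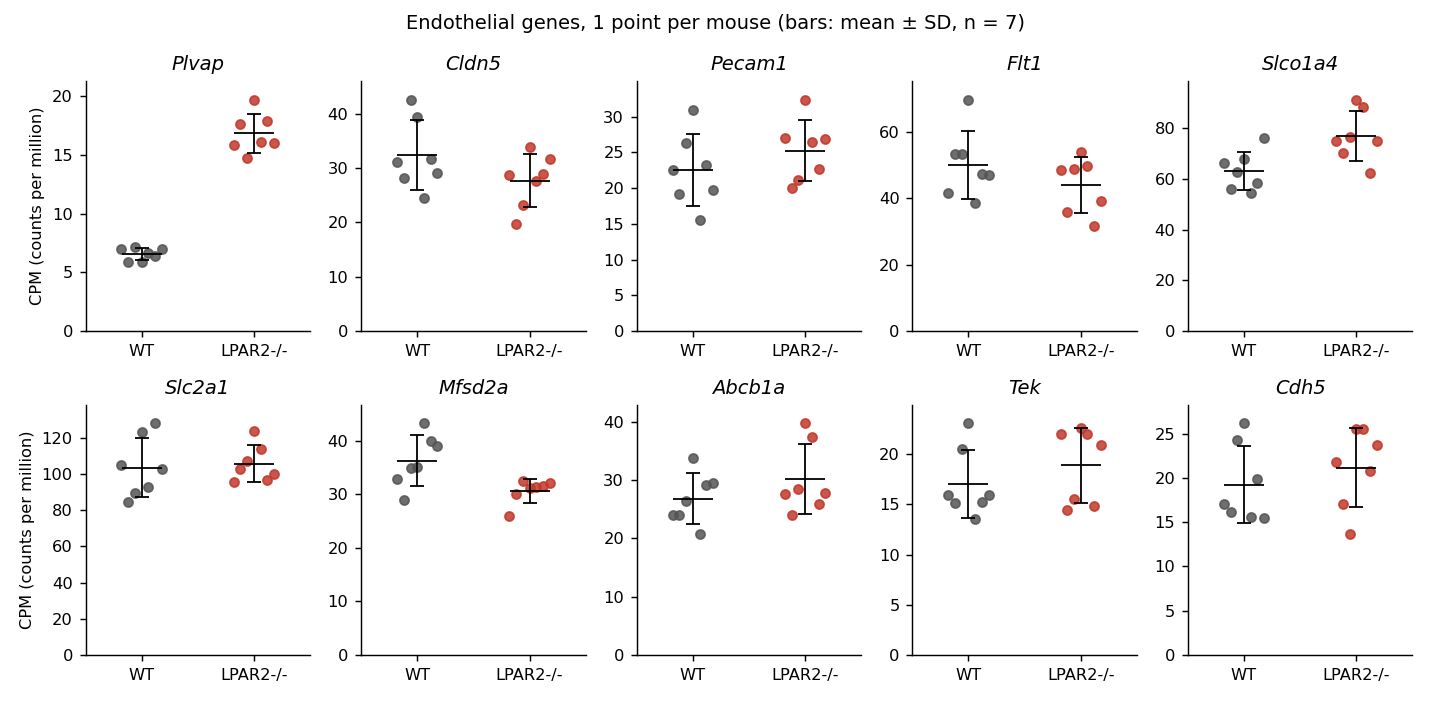
Level of Plvap and of the 9 other endothelial genes in CPM (y axis, from 0 in each panel) in 7 WT mice (grey) and 7 mice labelled LPAR2-/- (red), 1 point per mouse, with black bars for the mean ± SD. The groups are apart for Plvap, with 5.87 to 7.16 CPM in WT mice and 14.7 to 19.7 CPM in the mice labelled LPAR2-/-, and overlap for the other 9.

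None of the 9 other genes moved with Plvap at the threshold used, a Benjamini-Hochberg adjusted p under 0.05 over all genes tested in the quasi-likelihood test of edgeR. Of the 9 genes 0 passed, while 6.77% of all genes tested did. At an unadjusted p under 0.05 it was 2 of 9, beside 22.4% of all genes tested, and DESeq2 called the same 2 genes, Slco1a4 and Mfsd2a, beside 9.73% of all genes. These 2 genes differed in opposite directions. The genotypes overlapped in CPM for each of the 9, and 1.77% of all genes tested did not overlap. In sign, 6 of the 9 were higher and the other 3 lower, beside 51.1% higher of all genes. Their log2 fold changes ran from −0.24 to 0.29 with a median of 0.14, against a median of 0.00 over all genes. With 1 mouse left out this median ran from 0.09 to 0.23, highest without WT mouse 4 and at 0.09 without the mice labelled LPAR2-/- 4 or 5 or without WT mouse 5 or 7, and 5 or 6 of the 9 were higher. The highest upper bound among their 95% intervals was 0.47 and the lowest lower bound −0.51.

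**Figure D2:**
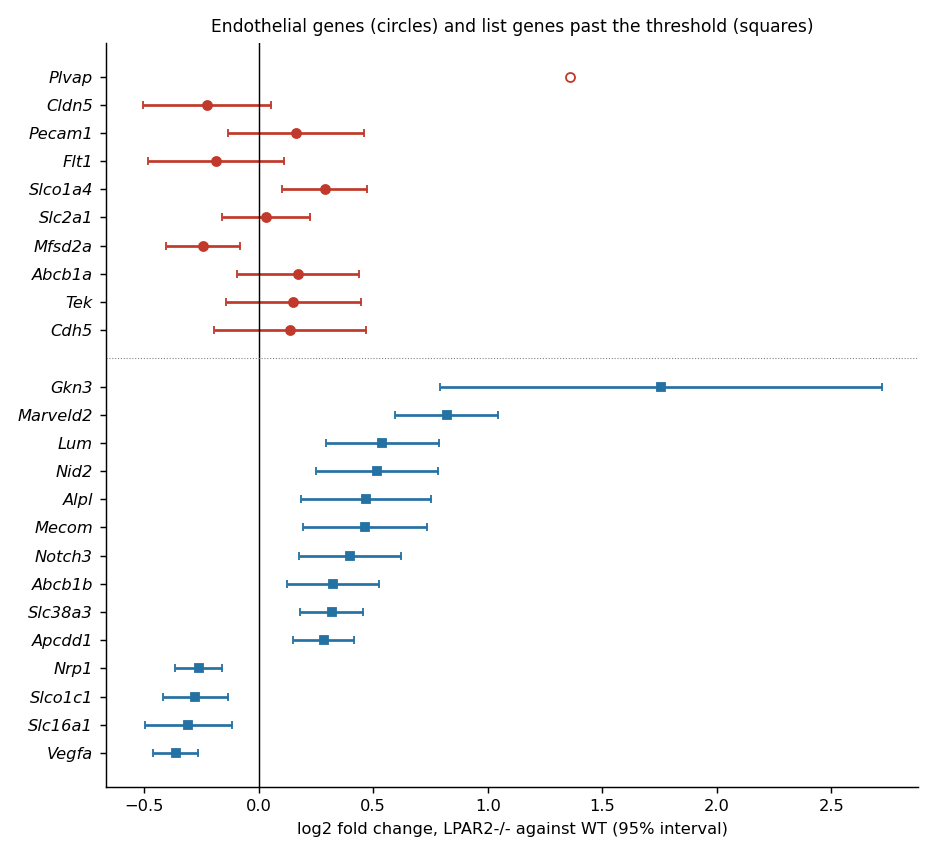
Log2 fold change of mice labelled LPAR2-/- against WT mice (x axis) for the 10 endothelial genes (red circles) and for the 14 genes of related lists that passed the threshold (blue squares), with 95% intervals from edgeR. Plvap, the open circle without an interval, lies at 1.36, and the other 9 endothelial genes lie between −0.24 and 0.29.

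The genes of cell contacts came first. Cldn5 (chr16:18776847-18778262) encodes claudin-5, the main sealing protein of endothelial tight junctions. It had 19.7, 28.8 and 33.8 CPM (lowest, median, highest) in the mice labelled LPAR2-/- and 24.5, 31.2 and 42.6 CPM in WT mice. Its log2 fold change was −0.23 (SE 0.132, 95% interval −0.51 to 0.06, adjusted p = 0.336 in edgeR), opposite in sign to that of Plvap, and 2 WT mice lay above all mice labelled LPAR2-/-. Pecam1 (chr11:106654213-106715281), an adhesion molecule at the contacts between endothelial cells, had 20.03, 26.5 and 32.4 CPM against 15.5, 22.6 and 31.0 CPM. The ranges lay largely on each other (log2 fold change 0.16, interval −0.13 to 0.46, adjusted p = 0.530 in edgeR). Cdh5 (chr8:104101625-104144502) encodes VE-cadherin of the adherens junctions and is on the chromosome of Plvap, 32589856 bases away. Its lowest, median and highest levels were 13.7, 21.8 and 25.6 CPM against 15.5, 17.1 and 26.2 CPM. The mice of the genotypes were intermingled for this gene (0.14, interval −0.20 to 0.47, adjusted p = 0.655 in edgeR). An antisense gene that overlaps Cdh5 had at most 1 count, and reads had been counted by strand.

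The receptors gave the same picture of overlap. Flt1 (chr5:147562196-147725988), a receptor that binds VEGF, had 31.6, 48.5 and 53.9 CPM in the mice labelled LPAR2-/- and 38.5, 47.1 and 69.6 CPM in WT mice. Its log2 fold change of −0.19 had a 95% interval from −0.48 to 0.11 (adjusted p = 0.461 in edgeR). Tek (chr4:94739289-94874976) encodes the angiopoietin receptor Tie2. Its levels were 14.5, 20.9 and 22.6 CPM against 13.6, 15.9 and 23.1 CPM. In the mice labelled LPAR2-/- the levels fell into a lower group of 3 mice and a higher group of 4, whereas 5 of 7 WT mice lay below 16 CPM (0.15, interval −0.15 to 0.45, adjusted p = 0.564 in edgeR).

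Among the transporters, 2 genes came closest to the threshold. Slco1a4 (chr6:141805440-141856171) encodes an organic anion transporter of the barrier. It had 62.3, 75.0 and 91.1 CPM in the mice labelled LPAR2-/- and 54.5, 62.7 and 75.9 CPM in WT mice, and 3 mice labelled LPAR2-/- lay above all WT mice. The means were 76.8 ± 9.97 and 63.0 ± 7.59 CPM (SD, n = 7 each), with a log2 fold change of 0.29 (SE 0.0868, interval 0.10 to 0.47). The adjusted p was 0.0588 in edgeR and 0.0220 in DESeq2, and over all alternatives of the processing it ranged from 0.0220 to 0.128. Its close relatives Slco1a1, Slco1a5 and Slco1a6, which could share reads with it, had at most 1, 9 and 3 counts. Mfsd2a (chr4:122946851-122961188) moves lysophosphatidylcholines with docosahexaenoic acid into the brain and is known to keep vesicle transport low. It had 26.0, 31.4 and 32.6 CPM against 28.9, 35.2 and 43.3 CPM, and 6 of 7 WT mice lay above all mice labelled LPAR2-/-. The means were 30.7 ± 2.21 and 36.3 ± 4.82 CPM (SD, n = 7 each), with a log2 fold change of −0.24 (SE 0.0769, interval −0.41 to −0.08). The adjusted p was 0.0695 in edgeR and 0.0398 in DESeq2, with a range from 0.0271 to 0.146 over all alternatives. Single mice decided on which side of the threshold these genes fell. Slco1a4 passed without the mouse labelled LPAR2-/- 6 (adjusted p = 0.0275) or without WT mouse 7 (adjusted p = 0.0244), and Mfsd2a without WT mouse 1 (adjusted p = 0.0473) or WT mouse 2 (adjusted p = 0.0271), all in edgeR.

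Slc2a1 and Abcb1a stayed further from it. Slc2a1 (chr4:119108745-119137329), the glucose transporter of the barrier, had 95.5, 102.9 and 124.0 CPM against 84.5, 102.6 and 127.5 CPM. The medians were nearly equal, and the log2 fold change of 0.03 had a 95% interval from −0.16 to 0.23 (adjusted p = 0.873 in edgeR). Abcb1a (chr5:8660092-8748570) encodes the efflux pump P-glycoprotein. Its levels were 24.0, 27.8 and 39.7 CPM against 20.7, 26.3 and 33.8 CPM, and the mice labelled LPAR2-/- 4 and 5 lay above all WT mice (0.17, interval −0.09 to 0.44, adjusted p = 0.444 in edgeR). Its neighbour and close relative Abcb1b (chr5:8798147-8866314) was higher in the mice labelled LPAR2-/-, at 6.44 ± 0.602 against 5.15 ± 0.681 CPM (SD, n = 7 each). The log2 fold change was 0.32 (SE 0.0946, adjusted p = 0.0492 in edgeR). In 12 of 14 fits without 1 mouse Abcb1b did not pass, with adjusted p up to 0.110. Reads that match both genes in several places had not been counted.

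Promoter sequences were read from RefSeq (GRCm38.p6, which is mm10) for 7 of the 10 genes, as the 250 bases before the transcription start. Motifs were searched on both strands, GGAAG, the core of sites for ETS factors, and TCAAAG, a core of sites for TCF/LEF factors, which carry Wnt signals. ETS factors are known to drive many endothelial genes and Wnt signals to maintain barrier genes. GGAAG was found in 3 of the 7 promoters, and 64.1% of 32851 promoters of the same length hold it. TCAAAG was found in 2 of the 7, beside 13.8% of all promoters. The Abcb1a entry, which counts for both motifs, lies at chr5:8566841-8567090, before the first base counted for this gene, and the bases after its start were not found in the reference transcripts. Without it the motifs were in 2 and 1 of 6 promoters. Shown are the genes closest to the threshold, which differed in opposite directions, and Cldn5 and Tek, a junction protein and a receptor for which neither string was found. All run from 5′ to 3′ on the strand of the gene, and capitals mark a motif or its reverse complement.
Slco1a4 (chr6:141856221-141856470, minus strand): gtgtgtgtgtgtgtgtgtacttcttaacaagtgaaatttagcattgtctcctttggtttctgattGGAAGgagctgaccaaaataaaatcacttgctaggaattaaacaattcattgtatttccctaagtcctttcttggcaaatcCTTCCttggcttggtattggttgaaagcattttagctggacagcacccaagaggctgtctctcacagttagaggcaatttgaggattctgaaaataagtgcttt
Mfsd2a (chr4:122961189-122961438, minus strand): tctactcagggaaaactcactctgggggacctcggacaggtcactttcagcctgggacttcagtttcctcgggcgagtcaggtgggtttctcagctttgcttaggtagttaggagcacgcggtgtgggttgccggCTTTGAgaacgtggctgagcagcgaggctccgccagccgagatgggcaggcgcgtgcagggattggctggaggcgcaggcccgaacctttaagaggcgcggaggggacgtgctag
Cldn5 (chr16:18776597-18776846, plus strand): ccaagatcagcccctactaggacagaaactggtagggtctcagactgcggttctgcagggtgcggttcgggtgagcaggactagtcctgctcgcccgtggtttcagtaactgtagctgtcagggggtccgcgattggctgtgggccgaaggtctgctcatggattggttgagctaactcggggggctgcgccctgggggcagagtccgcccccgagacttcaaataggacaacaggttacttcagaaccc
Tek (chr4:94739039-94739288, plus strand): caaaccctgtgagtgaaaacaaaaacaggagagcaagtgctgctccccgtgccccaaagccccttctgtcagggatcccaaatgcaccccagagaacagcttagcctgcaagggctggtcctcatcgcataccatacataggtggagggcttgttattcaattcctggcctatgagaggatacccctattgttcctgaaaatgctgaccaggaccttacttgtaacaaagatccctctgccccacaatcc
The Slco1a4 promoter holds GGAAG on each strand, and the Mfsd2a promoter holds TCAAAG on the opposite strand. A match is a description of the sequence and says nothing about binding.

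Per length of counted exon, Plvap changed its place among the 10 genes. In WT mice Slc2a1 was the most abundant with 40.2 ± 6.37 CPM per kb (SD, n = 7), followed by Cldn5 with 22.9 ± 4.50, Mfsd2a with 16.9 ± 2.24 and Slco1a4 with 16.5 ± 1.99 CPM per kb. Flt1, Pecam1, Abcb1a, Cdh5 and Tek followed with 7.96 ± 1.62, 6.76 ± 1.52, 5.38 ± 0.876, 4.83 ± 1.10 and 3.62 ± 0.725 CPM per kb, and Plvap was last with 3.26 ± 0.263 CPM per kb. The ranges of neighbours in this order overlapped, except between Slc2a1 and Cldn5 and between Slco1a4 and Flt1. In the mice labelled LPAR2-/- Plvap had 8.35 ± 0.834 CPM per kb and rank 5, between Mfsd2a and Pecam1. Its coefficient of variation was the lowest of the 10 among WT mice, 8.08% against up to 22.8% for Cdh5. Among the mice labelled LPAR2-/- it was 9.99%, above those of Mfsd2a (7.19%) and Slc2a1 (9.67%). Relative to Cldn5, Plvap had 62.3 ± 12.7 CPM per 100 CPM of Cldn5 in the mice labelled LPAR2-/- and 20.9 ± 4.13 in WT mice (SD, n = 7 each). This ratio restates the difference for which Plvap was chosen.

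Within a genotype, a relation of Plvap with the other genes was not detectable with 7 mice. Pearson correlations of log2 CPM between Plvap and the 9 genes ranged from −0.57 to 0.36 among WT mice, with a median of −0.15, and from −0.15 to 0.46 among mice labelled LPAR2-/-, with a median of 0.27. Of these 18 correlations 0 had an unadjusted p under 0.05, and the lowest adjusted p was 0.932 for Pearson's r and 1 for Spearman's rho (exact two-sided permutation tests over all 5040 pairings, Benjamini-Hochberg over 18). The most negative was that with Flt1 in WT mice (r = −0.57, p = 0.184; rho = −0.25, p = 0.595; exact permutation tests), and without the 2 mice farthest from the median of Plvap r was 0.35. The most positive was that with Cdh5 in mice labelled LPAR2-/- (r = 0.46, p = 0.318; rho = 0.46, p = 0.302; exact permutation tests), and r was 0.26 without such 2 mice. With Cldn5, r was 0.07 in WT mice and 0.30 in the mice labelled LPAR2-/-, and without the farthest 2 mice it was 0.50 and −0.37. Of the 18 correlations 13 changed sign when the farthest 2 mice of each genotype were left out, so that most of these directions depended on them. Within a genotype the same 2 mice were left out for all 9 genes, so these changes are not independent.

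**Figure D3:**
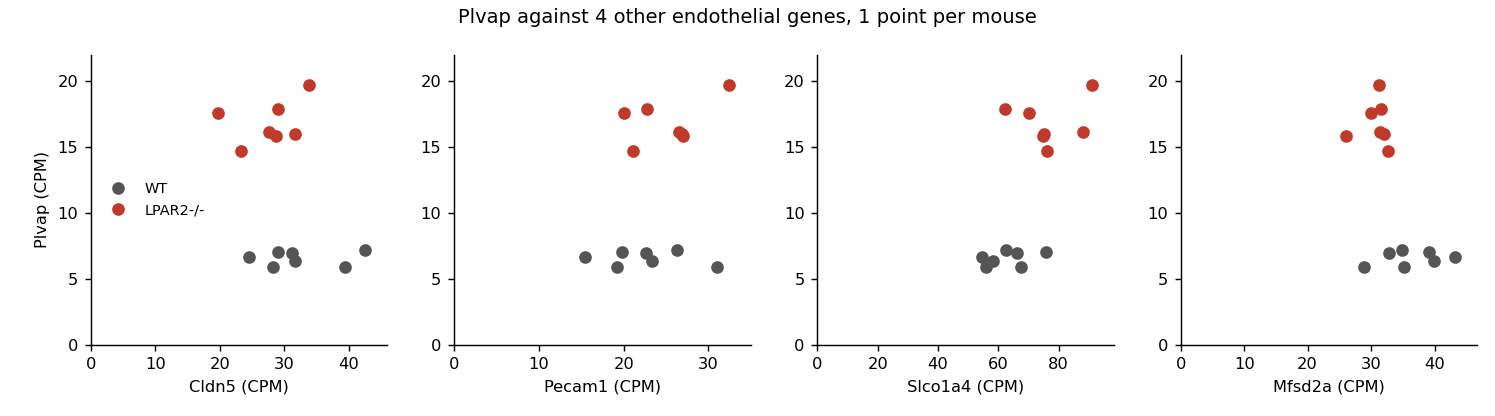
Level of Plvap (y axis, CPM) against that of Cldn5, Pecam1, Slco1a4 and Mfsd2a (x axes, CPM) in 7 WT mice (grey) and 7 mice labelled LPAR2-/- (red), 1 point per mouse. The genotypes form bands at 5.87 to 7.16 and 14.7 to 19.7 CPM of Plvap, and inside a band the 7 points scatter, with 0 of the 18 correlations of Plvap at an unadjusted p under 0.05.

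The other 9 genes were also compared with each other. Plvap had r above 0 with 3 of 9 genes in WT mice and with 8 of 9 in mice labelled LPAR2-/-, but without the 2 mice farthest from the median of Plvap in each genotype it was 7 of 9 and 1 of 9. Of the 36 pairs among the 9 genes, 30 had r above 0 in WT mice (median 0.49) and 32 in mice labelled LPAR2-/- (median 0.59), and 27 in each without the 2 farthest mice. In each genotype 11 pairs had an unadjusted p under 0.05 and 0 passed the adjustment over these pairs, with a lowest adjusted p of 0.0536 (exact permutation tests). Cldn5 and Pecam1 had r = 0.93 in WT mice (p = 0.00278; rho = 0.96, p = 0.00278) and r = 0.88 in mice labelled LPAR2-/- (p = 0.00655; rho = 0.82, p = 0.0341), all by exact permutation. Without the 2 mice farthest from the median these were 1.00 and 0.70. Whether the 9 genes correlated more with each other than with Plvap was not tested. Over all 14 mice, after removal of the genotype means, Plvap was ranked among 14081 genes with a mean of at least 1 CPM. The genes most like Cldn5 in this measure were Pdlim3 (r = 0.94), Pecam1 (0.90), Filip1l (0.88), Kank2 (0.88) and Ptrf (0.88), the caveolar coat gene also called Cavin1. Of the other endothelial genes, Cdh5 was at rank 21, Tek at 45, Abcb1a at 560, Flt1 at 951, Slco1a4 at 1979 and Slc2a1 at 3300. Plvap was at rank 3932 (r = 0.19), and Mfsd2a was farther from Cldn5 at rank 9949 (r = −0.16). The genes most like Plvap were Scaf1 (0.88), Ssbp4 (0.86), Polrmt (0.85), Ints1 (0.84) and Ubxn6 (0.83), and the first of the other endothelial genes, Mfsd2a, was at rank 3572 (0.21). These ranks describe libraries that share their depth and are given without a p.

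Endothelial and barrier genes beyond the 10 were read from 9 lists of 141 distinct genes, of which 133 were tested. At the threshold 8 of these rose and 4 fell in the mice labelled LPAR2-/-, which is 9.02%, beside 6.77% of all genes tested (3.32% higher and 3.46% lower). At an unadjusted p under 0.05 it was 35 of the 133 genes, or 26.3%, beside 22.4% of all genes, and DESeq2 called 20 (15.2%), beside 9.73%. With 1 mouse left out, the calls in edgeR numbered from 5, without WT mouse 2 or WT mouse 5 (3.76% each, beside 3.79% and 3.98% of all genes), to 17, without WT mouse 1 (12.8%, beside 9.26%). The median log2 fold change over the 133 genes was 0.07. Another 7 lists hold 92 genes of other cells in or next to the tissue, of which 78 were tested. Of these 2 rose and 0 fell in edgeR (2.56%), DESeq2 called 6, and 30 had an unadjusted p under 0.05 (38.5%), with a median log2 fold change of 0.32.

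Of the 25 pan-endothelial genes, 18 were higher and 7 lower in sign, beside 51.1% higher of all genes. Their median log2 fold change was 0.15, and 0.09 to 0.18 with 1 mouse left out. Only Mecom, a transcription factor, passed the test (0.46, adjusted p = 0.0395 in edgeR), and the call was lost in 8 of 14 fits without 1 mouse (adjusted p up to 0.0898). This call is 4% of the list, beside 6.77% of all genes. DESeq2 called 1, beside 9.73%, and 4 had an unadjusted p under 0.05, beside 22.4%. Clec14a had a larger value that did not pass (0.47, adjusted p = 0.187 in edgeR), and Ly6c1 was level (−0.01, adjusted p = 0.987). The summed level of this list was 432 to 633 CPM in mice labelled LPAR2-/- and 386 to 549 CPM in WT mice. Of 14 genes of junctions, 7 were higher and 7 lower, with a median of 0.00. In edgeR 1 of these passed (7.14%, beside 6.77% of all genes) and in DESeq2 2 (beside 9.73%). An unadjusted p under 0.05 was found for 3, beside 22.4%. Marveld2, which encodes tricellulin at the corners where 3 cells meet, rose from 2.44 ± 0.221 to 4.29 ± 0.589 CPM (SD, n = 7 each; log2 fold change 0.82, SE 0.106, adjusted p = 0.000311 in edgeR). Its highest WT mouse had 2.79 and its lowest mouse labelled LPAR2-/- 3.70 CPM, and the call held in all 14 fits without 1 mouse.

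Among 23 barrier transporters, 2 rose and 2 fell, which is 17.4% beside 6.77% of all genes. The median of these transporters was 0.05, and −0.01 to 0.07 with 1 mouse left out. DESeq2 called 6 of them, beside 9.73% of all genes, and 10 had an unadjusted p under 0.05, beside 22.4%. With 1 mouse left out 1 to 5 passed in edgeR, 1 without the mouse labelled LPAR2-/- 1, WT mouse 2 or WT mouse 5 and 5 without WT mouse 7. Slc38a3, a glutamine transporter, rose from 57.8 ± 6.22 to 72.1 ± 5.20 CPM (0.32, adjusted p = 0.00847 in edgeR), and Abcb1b is given above. Slco1c1, which takes thyroid hormone into the brain, fell from 87.9 ± 10.1 to 72.6 ± 5.36 CPM (−0.28, adjusted p = 0.0230 in edgeR). Slc16a1, a lactate and ketone body transporter, fell from 39.9 ± 4.92 to 32.3 ± 4.22 CPM (−0.31, adjusted p = 0.0495 in edgeR). Errors are SD with n = 7 each. Several of these are also made by astrocytes or neurons, which RNA of whole tissue does not separate. The call on Slc38a3 held in all 14 fits without 1 mouse, that on Slco1c1 was lost in 3 and that on Slc16a1 in 10 of them, with adjusted p up to 0.0537 and 0.108. Slc22a8 had the largest value of the list (0.65) and did not pass (adjusted p = 0.105 in edgeR).

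The ligand Vegfa, the growth factor that Flt1 binds, was lower in the mice labelled LPAR2-/-. Their range of 51.7 to 60.5 CPM lay below the 65.7 to 79.9 CPM of WT mice, with means of 56.1 ± 2.83 and 72.1 ± 4.87 CPM (SD, n = 7 each; log2 fold change −0.36, SE 0.0465, adjusted p = 0.000307 in edgeR). Its co-receptor Nrp1, also on chromosome 8 (chr8:128359073-128505475), fell from 160.2 ± 6.84 to 133.7 ± 10.8 CPM (−0.26, adjusted p = 0.00455 in edgeR). Both calls held in all 14 fits without 1 mouse. The other 11 tested genes of VEGF and angiopoietin ligands and receptors did not pass, so that 15.4% of the list was called, beside 6.77% of all genes, and the median of the 13 was 0.07. Angpt2 had the largest of these values (0.55, adjusted p = 0.353 in edgeR). Of 21 genes of Wnt signalling in endothelium, Apcdd1, a Wnt target and inhibitor, rose from 49.4 ± 3.92 to 60.1 ± 5.90 CPM (SD, n = 7 each; 0.28, adjusted p = 0.0158 in edgeR), and 20 did not pass. The call on Apcdd1 is 4.76% of the list, beside 6.77% of all genes. DESeq2 called 2, beside 9.73%, and 4 had an unadjusted p under 0.05, beside 22.4%.

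Of 9 tested genes of caveolae, the vesicles that can hold PLVAP, 0 passed in edgeR. At an unadjusted p under 0.05 it was 3 (2 to 5 with 1 mouse left out, 5 without the mouse labelled LPAR2-/- 3 or WT mouse 4), beside 22.4% of all genes, and DESeq2 called 1, beside 9.73%. In sign 7 of the 9 were higher, beside 51.1% of all genes, and the median was 0.18. The largest value was that of Ptrf, the caveolar coat gene (0.43, adjusted p = 0.252 in edgeR). Of 16 tested genes of fenestrated and of sprouting endothelium, Nid2, a basement membrane protein, rose from 5.06 ± 0.814 to 7.25 ± 1.36 CPM (SD, n = 7 each; 0.52, adjusted p = 0.0229 in edgeR), and Nrp1 fell. These 2 calls are 12.5% of the list, beside 6.77% of all genes. DESeq2 called 4, beside 9.73%, and 5 had an unadjusted p under 0.05, beside 22.4%. With 1 mouse left out the calls in edgeR numbered 1 without WT mouse 2 or 5 and up to 5 without WT mouse 1. The genotypes were apart for Nid2, but the call was lost without WT mouse 2 (adjusted p = 0.0554) or WT mouse 5 (adjusted p = 0.0502). Of 12 arterial genes Gkn3 (1.76, adjusted p = 0.0325) and Alpl (0.47, adjusted p = 0.0466 in edgeR), an alkaline phosphatase, rose, which is 16.7% beside 6.77% of all genes. These calls were lost in 7 and 11 of the 14 fits without 1 mouse, with adjusted p up to 0.0738 and 0.1003. Of 9 venous genes 0 passed in edgeR and 1 in DESeq2, beside 6.77% and 9.73% of all genes. At an unadjusted p under 0.05 it was 2 of the 9, beside 22.4% of all genes. Vwf had the largest value of these (0.73, adjusted p = 0.257 in edgeR), with 2510 counts in the mouse labelled LPAR2-/- 4. Without WT mouse 1, 1 venous gene passed in edgeR, 7 of the 9 were higher as before, and the median was 0.14 in place of 0.08.

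**Figure D4:**
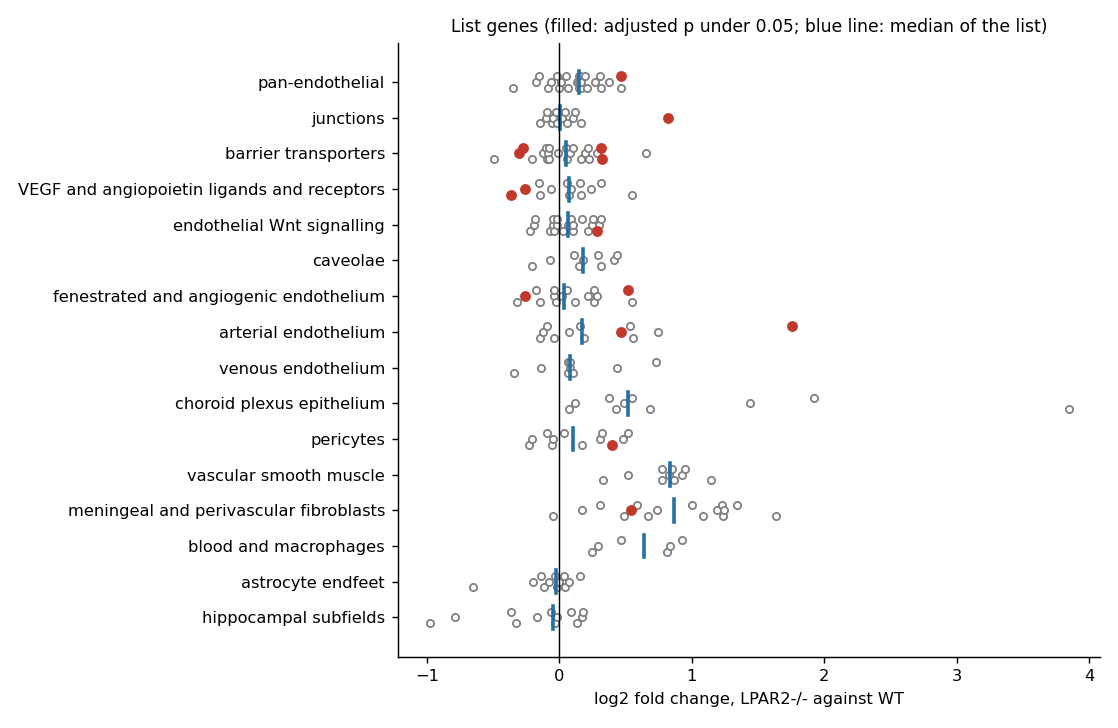
Log2 fold change of mice labelled LPAR2-/- against WT mice (x axis) for each tested gene of 16 lists (rows), with filled red points for an adjusted p under 0.05 in edgeR and a blue line at the median of the list. The endothelial and barrier lists lie around 0 with medians of 0.00 to 0.18, whereas the medians of vascular smooth muscle and of meningeal and perivascular fibroblasts are 0.84 and 0.87.

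Tested markers of smooth muscle, of meningeal and perivascular fibroblasts, of choroid plexus and of blood and macrophages were nearly all higher in sign in the mice labelled LPAR2-/-, beside 51.1% of all genes, and varied widely among mice. The counts of each list below stand beside 6.77% of all genes that passed in edgeR and 9.73% in DESeq2. At an unadjusted p under 0.05 they stand beside 22.4%. All 10 smooth muscle genes were higher (0 passed in edgeR and 0 in DESeq2, 5 at an unadjusted p under 0.05, median 0.84), with a summed level of 81.2 to 296 against 65.7 to 227 CPM. The 5 became 10 without the mouse labelled LPAR2-/- 3, where 1 passed in edgeR, or without WT mouse 4, and 2 without the mouse labelled LPAR2-/- 1, 4 or 5 or WT mouse 2, 5 or 7. It was 3 without WT mouse 1 or 6. Of 16 genes of meningeal and perivascular fibroblasts 15 were higher and Lum passed (0.54, adjusted p = 0.0132 in edgeR), DESeq2 called 2, beside 9.73% of all genes, and 13 had an unadjusted p under 0.05, beside 22.4% (median 0.87), with a summed level of 200 to 729 against 156 to 528 CPM. Without WT mouse 4 the number of this list past the threshold was 8, and 2 without the mouse labelled LPAR2-/- 3. The 13 at an unadjusted p became 6 without the mouse labelled LPAR2-/- 5 and 8 without WT mouse 7. All 10 tested genes of choroid plexus epithelium were higher (0 passed in edgeR and 1 in DESeq2, 5 at an unadjusted p under 0.05, median 0.52), with a sum of 95.1 to 493 against 93.8 to 135 CPM. Without the mouse labelled LPAR2-/- 2, 9 of the 10 were higher, 3 had an unadjusted p under 0.05 (1 of 9 tested without it and WT mouse 1 together), the median was 0.41 and the highest sum of that label was 180 CPM. The filter on low counts can admit a gene through the label in which it is high. Kcnj13 and F5, with 2 to 22 and 3 to 14 counts in WT mice, were among the 5 at an unadjusted p. With at least 10 counts asked of every library, 7 genes of this list were tested. All 7 were higher, and 2 had an unadjusted p under 0.05. The pericyte list was closer to level, with 7 of 12 genes higher. Of these 12 Notch3 passed (0.40, adjusted p = 0.0339 in edgeR; lost in 8 of 14 fits without 1 mouse, adjusted p up to 0.0791), the median was 0.10 and the sum was 203 to 301 against 162 to 261 CPM. Of 12 genes of blood and macrophages 4, all of hemoglobin, were at 0 in every mouse, and the 6 tested ones were higher (0 passed in edgeR, 1 in DESeq2 and 1 at an unadjusted p under 0.05, median 0.64, with up to 4 at an unadjusted p without WT mouse 4). The remaining genes, S100a8 and S100a9, reached 0.26 and 0.34 CPM in mice labelled LPAR2-/- and 0.76 and 1.42 CPM in WT mice. Without the filter on low counts, 6 of 8 genes were higher, and the median was 0.38. The lists of astrocyte endfeet (median −0.03) and hippocampal subfields (median −0.05) had 0 calls each in edgeR, 1 and 0 in DESeq2 and 1 each at an unadjusted p under 0.05. The subfield genes, a check of the labelled hippocampus, summed to 833 to 949 against 790 to 996 CPM, with none at 0 in any mouse. The part of these cells in the values of the endothelial genes was not tested.

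Around Plvap itself, calls were frequent in both directions. Of 23 other tested genes within 250 kb of its ends, 5 rose and 3 fell in the mice labelled LPAR2-/-, which is 34.8%, beside 6.77% of all genes tested. Within 500 kb it was 33.3% of 27 genes and within 1000 kb 32.8% of 64 genes, with 10 higher and 11 lower. Ocel1, an occludin-like gene, rose from 3.44 ± 0.659 to 6.56 ± 0.838 CPM (SD, n = 7 each; 0.93, adjusted p = 0.000344 in edgeR). Colgalt1, a collagen glycosyltransferase, rose by 0.41, Fcho1, a factor of endocytosis, by 0.33, Gtpbp3, a mitochondrial tRNA-modifying enzyme, by 0.24, and Babam1, a DNA repair factor, by 0.17 on the log2 scale. Haus8, of the mitotic spindle, fell by 0.52, Myo9b, a myosin, by 0.15, and B3gnt3, a glycosyltransferase, by 1.11. The nearest genes on either side were Gtpbp3 and Bst2. Gtpbp3, whose start is 23.7 kb from that of Plvap, had the 0.24 given above (adjusted p = 0.0219 in edgeR), and Bst2, 25.7 kb away on the other side, had −0.19 (adjusted p = 0.629 in edgeR). Of the 8 calls, 5 held in all 14 fits without 1 mouse. Ushbp1, a further gene of endothelium, lies in this window with 0.15 (adjusted p = 0.488 in edgeR).

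**Figure D5:**
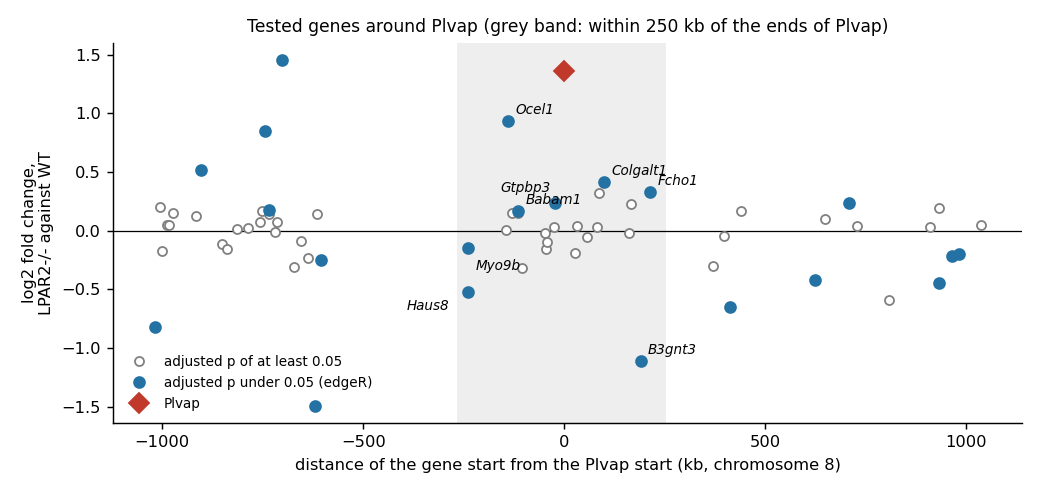
Log2 fold change of mice labelled LPAR2-/- against WT mice (y axis) for tested genes around Plvap, by the distance of their transcription start from that of Plvap in kb (x axis), with filled blue points for an adjusted p under 0.05 in edgeR and a grey band for the window of 250 kb. Plvap (red diamond) is at 1.36, 5 genes in the band are called higher and 3 lower, and Bst2 beside it is at −0.19.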

How the data were processed

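The authors depleted hippocampal total RNA of 14 mice of ribosomal RNA and sequenced it (TruSeq libraries, Illumina). Per the labels and file headers, their pipeline used cutadapt 1.18 for trimming, STAR for alignment to mm10 and featureCounts 1.6.3 for counts per gene over exons, by strand (reverse). Multi-mapping reads and reads on several genes were not counted. The deposited counts were used, and a deposited table of normalized values was not. No sequencing batch is named. Nothing says whether libraries were prepared together, so p-values measure the spread between these mice.

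All genes were fitted with edgeR 4.0.16 in R 4.3.3 (TMM, filterByExpr, robust quasi-likelihood F test, 7 against 7 mice, no covariates) and adjusted after Benjamini-Hochberg. CPM are per TMM library size, with a prior count of 2 for log2 values. SE were taken from the F statistic. The procedure was tested on simulated data. The members and lists were chosen with earlier results of these data known. Named were the 10 genes, close relatives, Lpar2, list genes past the threshold, genes called within 250 kb of Plvap, and the 5 genes most like Plvap and Cldn5. For some lists the largest or smallest value in size among the genes that did not pass was also named. Alternatives were DESeq2 1.42.0, DESeq2 size factors, upper quartile scaling, a filter of at least 10 counts in every library or none, the mouse number as block, each mouse left out, a prior count of 0.5 and other windows. Mice of the same number did not vary together (correlations of −0.33 to 0.31, 3 of 7 above 0.1). Libraries of a genotype differed by more than sampling noise in each of 42 pairs (chi-square over its degrees of freedom at least 3.41). A count of 0 allows up to 3 counts, which covers counting error only.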

Additional observations from a re-analysis of the deposited data

Results flagged for a closer look

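In 52 groups of 7 mice, 4 values lay far from the other 6 mice of their group relative to its range, and chance alone gives this in about 1 in 20 groups. Mfsd2a was at 26.0 CPM in the mouse labelled LPAR2-/- 1, while the other 6 mice of that label had 30.0 to 32.6 CPM. The summed level of choroid plexus genes was 493 CPM in the mouse labelled LPAR2-/- 2, against at most 180 CPM in the other 6. The summed level of venous genes was 360 CPM in WT mouse 1, against at most 251 CPM in the other WT mice. The summed level of meningeal and perivascular fibroblast genes was 528 CPM in WT mouse 4, against at most 293 CPM in the other WT mice. Without the mouse labelled LPAR2-/- 2 and WT mouse 1 together, an alternative chosen after seeing the data, 0 of the 9 endothelial genes passed in edgeR, 6 were higher in sign and their median log2 fold change was 0.16.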

How the results depend on the processing

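Of 189 values of the 9 endothelial genes under alternatives, 187 kept their direction and 6 passed the threshold. Both that turned were of Slc2a1, which ranged from −0.0110 to 0.0890 with 1 mouse left out and was below 0 without the mouse labelled LPAR2-/- 4 or WT mouse 2. DESeq2 called 2 of the 9, 26 list genes in place of 14 and 1393 genes in all in place of 1009, and all 14 list genes were among its calls. With 1 mouse left out, 0 to 1 of the 9 passed, 6 to 21 list genes (6 without WT mouse 2 or 5, 21 without WT mouse 4) and 5 to 8 genes within 250 kb of Plvap (5 without the mouse labelled LPAR2-/- 1, WT mouse 4 or WT mouse 6). Within 1000 kb there were 21 calls. With the mouse number as replicate block, which does not pair these mice, 0 of the 9, 7 list genes, 5 genes within 250 kb and, of all genes, 314 higher and 272 lower passed. Upper quartile scaling raised the share of calls that were higher from 49.0% to 62.0% (616 higher and 377 lower), with a median shift of all genes to 0.02. Genes near Plvap with values around 0 changed sign without single mice. Use1 ranged from −0.0179 to 0.0329, and was −0.0166 without the mouse labelled LPAR2-/- 2 and WT mouse 1 together. Pgls ranged from −0.0113 to 0.0687 and Unc13a from −0.0408 to 0.00435. Correlations of Plvap past the threshold numbered 0 under all settings run, including a prior count of 0.5. The cause of these changes was not tested. Depth limits the paralogs Slco1a1, Slco1a5 and Slco1a6, which were not tested. With 7 mice a group, the 95% intervals of the 9 endothelial genes lay between −0.51 and 0.47 on the log2 scale.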
